A study of Mus musculus with 8 samples.

Results

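Cytochrome c oxidase is the last enzyme of the mitochondrial respiratory chain. The 10 genes described here, of 27179 in the table, encode subunits of this enzyme and were taken by their symbols: Cox4i1, Cox4i2, Cox6a1, Cox6a2, Cox6b1, Cox7a1, Cox7a2, Cox7c, Cox8a and Cox8b. All 10 symbols were found, once each. RNA-seq of total RNA was done on mouse heart, brain, kidney and liver, each taken in 2 ways. One sample of each organ was formalin-fixed and then paraffin-embedded (FFPE), the other was flash frozen, which gave 8 libraries and 1 library per group. Strain, age, sex, the number of animals and any pooling were not given in the sources used here, so p-values measure the spread between these libraries, not between animals.

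The oxidase takes electrons from cytochrome c, passes them to oxygen and pumps protons across the inner mitochondrial membrane. Its catalytic core is encoded by mitochondrial DNA, and the surrounding subunits are nuclear and tune the enzyme, hold it together or bind its partners. Several nuclear subunits come as a pair of isoforms from separate genes. Cox6a2, Cox7a1 and Cox8b are known as the heart and skeletal muscle forms in rodents, where Cox6a1, Cox7a2 and Cox8a are the widely expressed (liver-type) forms. Cox4i2 is known as the lung-enriched, oxygen-responsive partner of Cox4i1, and Cox6b1 and Cox7c have no muscle form.

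Reads assigned to genes numbered 10180972 to 20526813 per library. The levels below are counts per 1000000 reads (CPM) on the authors' scaled library sizes, whose scaling factors ran from 0.5 in frozen heart to 1.76 in FFPE brain, so 3 reads stood for 0.119 to 0.292 CPM. The organ labels were checked with marker lists. The 8 cardiomyocyte markers summed to 27070 CPM in FFPE heart and 31390 CPM in frozen heart, against 1.54 to 301 CPM in the other 6 libraries. Neuron, proximal tubule and hepatocyte markers were likewise highest in both libraries of brain, kidney and liver.

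In the GRCm38 annotation the member genes are spread over 7 chromosomes, and the principal transcripts are short, from 360 nucleotides for Cox8b to 765 nucleotides for Cox4i1. Each isoform lies on another chromosome than its partner. Cox6a2 (chromosome 7, 128205435 to 128206387, minus strand, 3 exons), Cox7a1 (chromosome 7, 30184144 to 30186078, plus strand, 4 exons) and Cox8b (chromosome 7, 140898945 to 140900446, minus strand, 2 exons) are on the chromosome that also holds Cox6b1. Cox6a1 is on chromosome 5, Cox7a2 on chromosome 9, Cox8a on chromosome 19, Cox4i1 on chromosome 8 and Cox4i2 on chromosome 2. The coding sequences of the partners were 54.23% (Cox8b and Cox8a) to 69.57% (Cox4i2 and Cox4i1) identical, with no identical run longer than 14 bases. Exons of Cox4i1 overlap Emc8 and those of Cox6a2 overlap Itgad, both on the other strand, and the strand setting of the counting was not given in the sources used here. Reads of these overlapping stretches cannot be assigned with certainty.

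The upstream sequences are shown because the muscle isoforms and their partners differ in where they are expressed. RefSeq promoters (GRCm38.p6) were found for 7 of the 10 members, but not for Cox4i1, Cox4i2 and the muscle isoform Cox6a2. The 250 bases before the RefSeq start of Cox7a1 (chr7:30183921-30184170, plus strand), Cox7a2 (chr9:79759854-79760103, minus strand), Cox8b (chr7:140900447-140900696, minus strand), Cox8a (chr19:7217617-7217866, minus strand) and Cox6a1 (chr5:115348959-115349208, minus strand) read as follows, 5′ to 3′. Capitals mark matches, on either strand, to the NRF1 core CGCATGC, the GABP motif CCGGAAG or the SP1 motif GGGCGG.
Cox7a1: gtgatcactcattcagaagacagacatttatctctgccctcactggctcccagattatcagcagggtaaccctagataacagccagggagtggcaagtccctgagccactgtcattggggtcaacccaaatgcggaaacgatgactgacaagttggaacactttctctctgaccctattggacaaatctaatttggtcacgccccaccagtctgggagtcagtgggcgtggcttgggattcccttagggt
Cox7a2: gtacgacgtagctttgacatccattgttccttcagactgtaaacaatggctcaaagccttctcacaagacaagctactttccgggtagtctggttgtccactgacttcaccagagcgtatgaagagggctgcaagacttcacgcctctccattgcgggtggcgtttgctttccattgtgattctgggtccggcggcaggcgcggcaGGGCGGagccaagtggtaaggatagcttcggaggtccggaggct
Cox8b: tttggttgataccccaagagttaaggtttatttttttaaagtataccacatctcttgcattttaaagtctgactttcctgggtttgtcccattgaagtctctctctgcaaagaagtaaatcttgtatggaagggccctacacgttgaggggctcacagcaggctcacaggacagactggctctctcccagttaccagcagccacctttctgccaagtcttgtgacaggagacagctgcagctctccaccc
Cox8a: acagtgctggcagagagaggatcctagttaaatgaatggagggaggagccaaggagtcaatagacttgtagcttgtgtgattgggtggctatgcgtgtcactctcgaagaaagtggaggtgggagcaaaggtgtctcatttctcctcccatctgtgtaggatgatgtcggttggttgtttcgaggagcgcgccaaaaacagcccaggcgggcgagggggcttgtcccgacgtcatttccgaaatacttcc
Cox6a1: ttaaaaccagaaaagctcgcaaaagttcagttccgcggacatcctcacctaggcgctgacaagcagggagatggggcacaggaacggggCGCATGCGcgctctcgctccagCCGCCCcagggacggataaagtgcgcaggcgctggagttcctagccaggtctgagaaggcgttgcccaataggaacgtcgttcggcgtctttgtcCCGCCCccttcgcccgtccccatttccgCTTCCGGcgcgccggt

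Cox6a1 held the NRF1 core in a stretch that reads alike on both strands (at -161 and -160 from the start), a GABP motif at -16 and SP1 motifs at -139 and -44, and Cox7a2 held an SP1 motif at -44. In the windows of Cox7a1, Cox8b and Cox8a none of these motifs was found. Of the windows not printed, Cox6b1 held a GABP motif at -28 and Cox7c held none of these motifs. The ERR element AAGGTCA and the MEF2 and CArG motifs were found in none of the 7 windows. An E-box (CANNTG) was found once each in Cox7a1, Cox7a2, Cox7c, Cox8b and Cox8a. Cox6b1 held 2 and Cox6a1 held 0. Of 32851 promoter windows of this length, 3.02% held the NRF1 core, 6.91% the GABP motif, 32.7% the SP1 motif, 4.08% the ERR element, 0.508% the MEF2 motif, 1.47% the CArG motif and 66.2% an E-box. Letters that match a motif are not a measured site, and these libraries hold no binding data.

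The 3 muscle isoforms were strongly higher in heart. Cox6a2, whose product sits where the enzyme's monomers meet, had 222 CPM in FFPE heart and 396 CPM in frozen heart (2933 and 4067 reads). In brain it had 0.614 CPM (FFPE) and 0.634 CPM (frozen), in kidney 0.136 CPM (FFPE) and 0.468 CPM (frozen), and in liver 0 reads in either library. The heart libraries thus stood apart from all 6 others, which held 38 reads in all. The mean of 309 ± 123 CPM in heart (SD, n = 2) was 495.5-fold higher than in brain, 1024-fold higher than in kidney and at least 1251-fold higher than in liver, where the bound sets 3 reads in each library. Against the mean of the other 3 organs the log2 fold change was 10.57 ± 0.46 (SE, limma, adjusted p = 1.37e-06). It was 9.64 with the libraries without reads set at 3 reads. Cox6a2 entered the test only through its heart libraries, so the p-value lends the difference no support.

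Cox8b, the rodent muscle form of one of the smallest nuclear subunits, had 83.8 CPM in FFPE heart and 183 CPM in frozen heart (1105 and 1877 reads). The other 6 libraries held 20 reads together, of which 17 were in FFPE kidney, where the level was 0.770 CPM. Brain had 1 read in the FFPE library and 0 in the frozen one, as did liver, and frozen kidney had 1 read. The groups did not overlap. The log2 fold change for heart was 10.41 ± 0.79 (SE, limma, adjusted p = 1.66e-05), or 9.47 with libraries without reads at 3 reads. It was 8.78 among FFPE libraries, which is also the value without frozen heart (limma, adjusted p = 0.000798), and 12.03 among frozen libraries. The heart mean was 322-fold the kidney mean. Cox8b also entered the test only through its heart libraries, so its p-values lend the difference no support.

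Cox7a1, a small membrane-spanning subunit at the enzyme's edge, had 117 CPM in FFPE heart and 211 CPM in frozen heart. It was the one muscle isoform with a clear level elsewhere, with 1.68 CPM in FFPE kidney and 2.98 CPM in frozen kidney (37 and 51 reads). In brain it had 0.726 CPM (FFPE) and 0.317 CPM (frozen), and in liver 0.0689 CPM (FFPE, 1 read) and 0.768 CPM (frozen, 8 reads). Both heart libraries lay above all others, and the brain and liver libraries overlapped. The heart mean of 164 ± 66.0 CPM (SD, n = 2) was 70.4-fold that of kidney, 315-fold that of brain and 392-fold that of liver. The log2 fold change against the other organs was 7.83 ± 0.66 (SE, limma, adjusted p = 2.72e-05).

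Cox4i2 was also higher in heart, but at a low level. It had 2.50 CPM in FFPE heart and 3.12 CPM in frozen heart (33 and 32 reads), against 0.447 and 0.476 CPM in FFPE and frozen brain and 0.0906 and 0.176 CPM in FFPE and frozen kidney. No read fell on it in liver. The heart mean was 6.09-fold that of brain and at least 11.4-fold that of liver. The log2 fold change was 4.30 ± 0.55 (SE, limma, adjusted p = 0.000304), or 3.36 with libraries without reads at 3 reads. Like Cox6a2 and Cox8b, Cox4i2 entered the test only through heart, so its p-value lends no support. Markers of pericytes and smooth muscle, cells in which Cox4i2 has been described, were also highest in heart. The 10 genes of that list summed to 720 CPM in FFPE heart and 727 CPM in frozen heart. The other 6 libraries had 72.3 to 220 CPM, in another order than Cox4i2. The list had 220 and 157 CPM in FFPE and frozen kidney, and 76.7 and 81.5 CPM in FFPE and frozen brain. In FFPE and frozen liver it had 72.3 and 75.8 CPM. Abcc9 alone held 264 and 302 CPM of the sum in FFPE and frozen heart. All 10 list genes were called higher in heart than the mean of the other 3 organs (21.5% of all genes tested were). Single genes could overlap across preparations, as Myh11 did at 62.6 CPM in FFPE kidney and 40.9 CPM in frozen heart. The part of pericytes and smooth muscle cells in the Cox4i2 level was not tested.

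**Figure D1:**
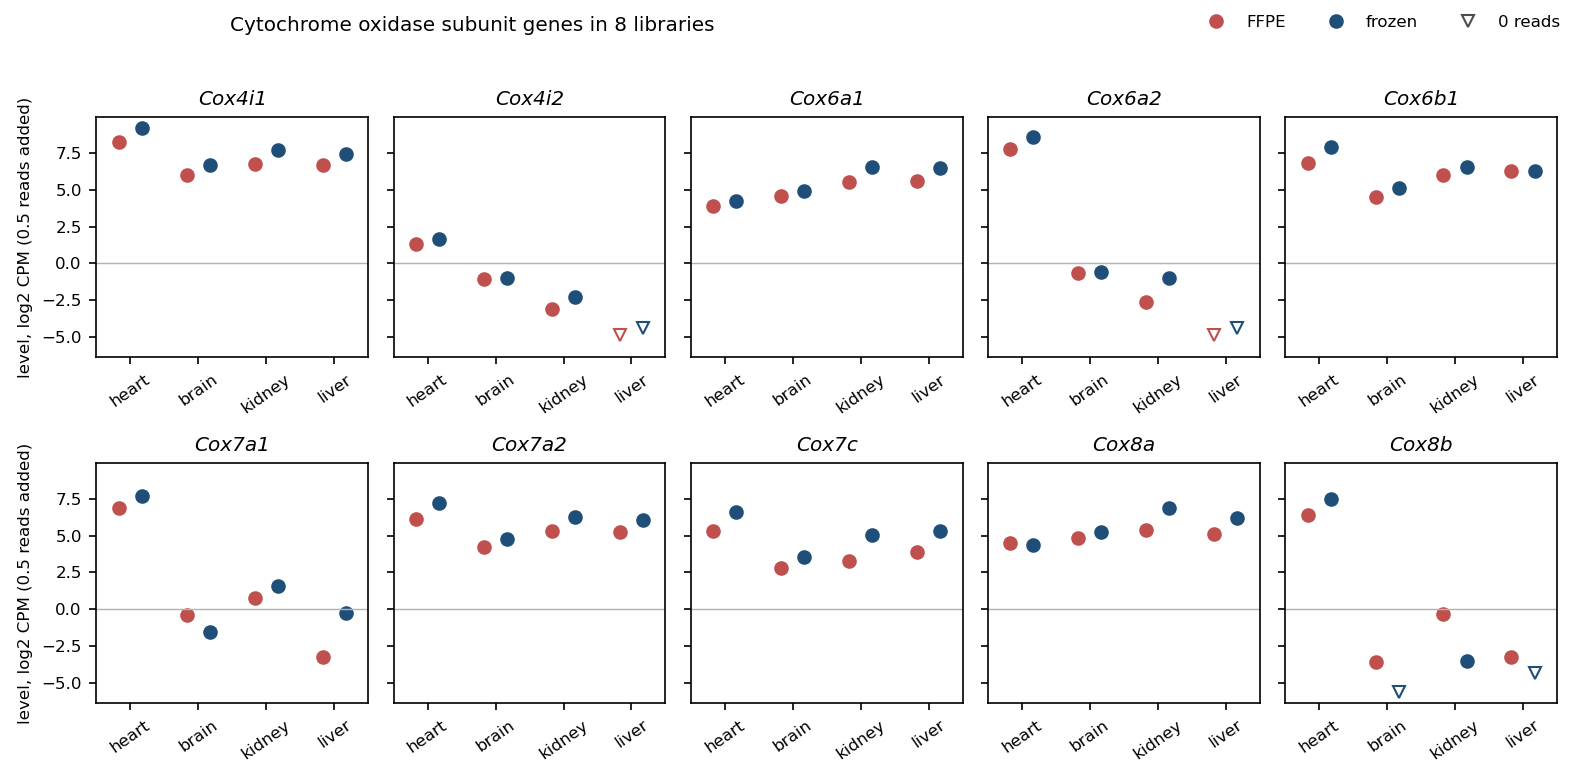
Level of each of the 10 oxidase genes in 8 libraries. The y axis is log2 CPM with 0.5 reads added, the x axis gives the organ, red points are FFPE and blue points frozen libraries, and open triangles are libraries with 0 reads. Cox6a2, Cox7a1 and Cox8b lie between 6.39 and 8.63 in heart and at 1.59 or below elsewhere, while Cox6a1 and Cox8a are lower in heart than in the other organs.

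Among the widely expressed partners, Cox6a1 and Cox8a were lower in heart and Cox4i1 and Cox7a2 higher. Cox6a1 had 15.1 CPM in FFPE heart and 18.6 CPM in frozen heart, against 23.9 and 29.8 CPM in FFPE and frozen brain, 46.9 and 93.9 CPM in FFPE and frozen kidney, and 48.6 and 91.2 CPM in FFPE and frozen liver. Every library outside heart lay above both heart libraries. The log2 fold change was -1.55 ± 0.17 (SE, limma, adjusted p = 0.000149), and the heart mean was 0.628 of that of brain and 0.240 of that of kidney.

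Cox8a had 23.1 CPM in FFPE heart and 20.7 CPM in frozen heart, against 29.4 and 38.9 CPM in FFPE and frozen brain, 42.8 and 119 CPM in FFPE and frozen kidney, and 34.1 and 73.6 CPM in FFPE and frozen liver. The groups again did not overlap, but the size of the gap turned on the frozen heart library. The log2 fold change was -1.18 ± 0.28 (SE, limma, adjusted p = 0.00791), and without frozen heart it was -0.60 (adjusted p = 0.141). Within preparations the difference was -0.60 among FFPE libraries and -1.75 among frozen ones.

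Cox4i1, the form of subunit 4 found in nearly all tissues, had 308 CPM in FFPE heart and 593 CPM in frozen heart. The other 6 libraries ran from 64.9 CPM in FFPE brain to 210 CPM in frozen kidney, below both heart libraries. Its log2 fold change was 1.85 ± 0.12 (SE, limma, adjusted p = 7.88e-06). Cox7a2 had 72.1 CPM in FFPE heart and 152 CPM in frozen heart, against 18.7 to 77.1 CPM elsewhere. Here frozen kidney, at 77.1 CPM, lay above FFPE heart, so the libraries overlapped across preparations, although heart was the highest organ within each preparation. The log2 fold change of Cox7a2 was 1.39 ± 0.14 (SE, limma, adjusted p = 6.96e-05).

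The 2 members without a muscle form were higher in heart by similar factors. Cox6b1, which bridges the monomers on the side facing cytochrome c, had 112 CPM in FFPE heart and 244 CPM in frozen heart, against 23.0 to 93.9 CPM elsewhere. Its heart mean was 6.17-fold that of brain and 2.25-fold that of kidney, and the log2 fold change was 1.58 ± 0.19 (SE, limma, adjusted p = 0.000227). Cox7c, another small membrane-spanning subunit, had 39.6 CPM in FFPE heart and 100.1 CPM in frozen heart, against 6.87 to 40.0 CPM elsewhere. Frozen liver, at 40.0 CPM, matched FFPE heart closely, so these libraries overlapped across preparations. The log2 fold change of Cox7c was 1.99 ± 0.20 (SE, limma, adjusted p = 6.64e-05).

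In all, 8 members were called higher and 2 lower in heart against the mean of the other 3 organs. Among all 15819 genes tested, 21.5% were called higher and 28.7% lower in that comparison. The median log2 fold change was 1.92 over the 10 members and -0.19 over all genes tested. Against each organ alone, 8 members were higher and 1 lower than in brain (24.7% and 33.3% of all genes tested), 8 higher and 2 lower than in kidney (18.8% and 22.2%), and 8 higher and 2 lower than in liver (27.5% and 25.6%). Cox8a against brain, at -0.63 (limma, adjusted p = 0.146), was the one that did not pass. All 10 members entered the test, which took genes above 1 CPM in at least 2 libraries. Cox4i2, Cox6a2 and Cox8b entered only through their heart libraries and so had to differ. Their calls add nothing to the count, and the median of 1.92 includes them. Without heart, 7 members would enter. All 10 kept their sign among FFPE and among frozen libraries taken alone. Without the authors' scaling factors the median over all genes moved to -1.03, and the 10 members still had the same direction and call, with Cox7a2 at 0.55 (limma, adjusted p = 0.0174) and Cox6a1 at -2.39.

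**Figure D2:**
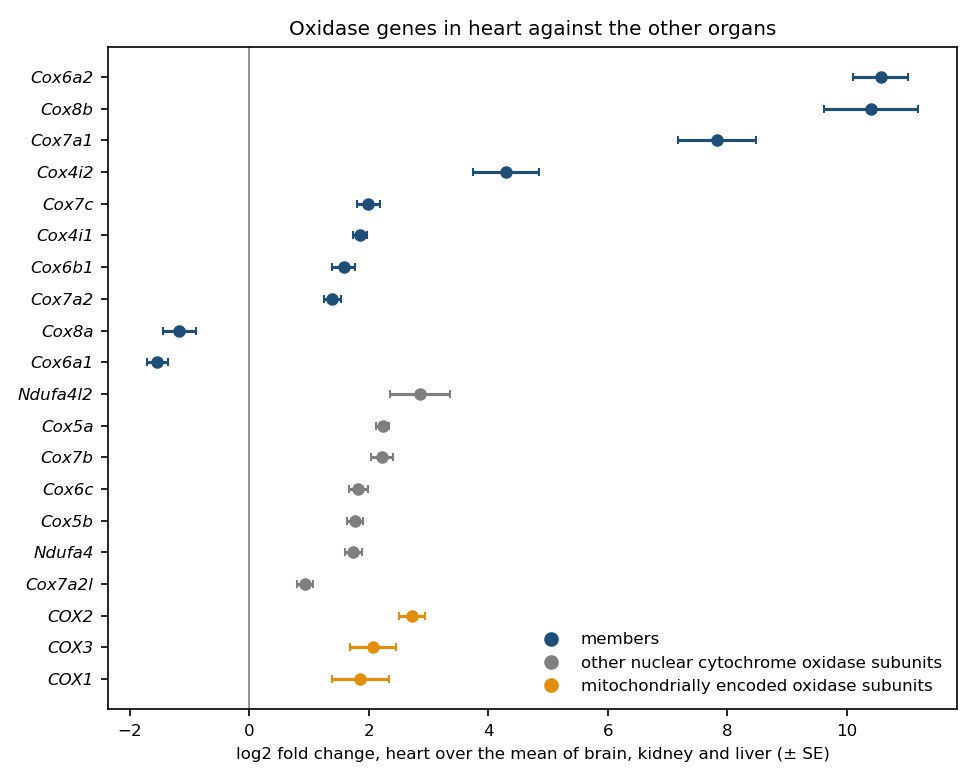
Log2 fold change of oxidase genes in heart over the mean of brain, kidney and liver, with SE from limma. Blue points are the 10 genes described here, grey points 7 other nuclear subunits and orange points the 3 mitochondrially encoded subunits; Cox6a2, Cox8b and Cox7a1 lie at 7.83 or above, and Cox8a and Cox6a1 are the 2 points below 0.

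The isoform make-up of a subunit was read as the share of one gene in its pair, after dividing reads by transcript length, as a description with no test. Cox6a2 made up 92.5% of its pair in FFPE heart (exact 95% interval 91.5% to 93.5%) and 94.7% in frozen heart (93.9% to 95.4%), against 2.11% or less in the other 6 libraries. Cox8b made up 84.7% in FFPE heart (83.0% to 86.3%) and 93.1% in frozen heart (92.1% to 94.0%), against 2.68% or less elsewhere. For both subunits the muscle form was thus the main transcript in heart and a trace elsewhere. In liver 0 of 705 (FFPE) and 0 of 950 (frozen) pair reads were Cox6a2, which allows a share of up to 0.358% and 0.265%.

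Subunit 7A was more mixed. Cox7a1 made up 73.2% of its pair in FFPE heart (71.6% to 74.8%) and 69.9% in frozen heart (68.5% to 71.2%), and Cox7a2 made up the rest. Outside heart the Cox7a1 share was 6.46% in FFPE kidney and 6.09% in frozen kidney (intervals 4.61% to 8.76% and 4.58% to 7.90%), 6.13% in FFPE brain and 1.92% in frozen brain, and 0.306% in FFPE liver and 1.85% in frozen liver. Subunit 4 did not switch in any organ. Cox4i2 made up 0.840% of its pair in FFPE heart and 0.546% in frozen heart, and at most 0.713% elsewhere, so the heart and brain shares overlapped although the level of Cox4i2 was higher in heart. Intervals cover counting error only, since no molecular identifiers are described that would set PCR copies apart from molecules.

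**Figure D3:**
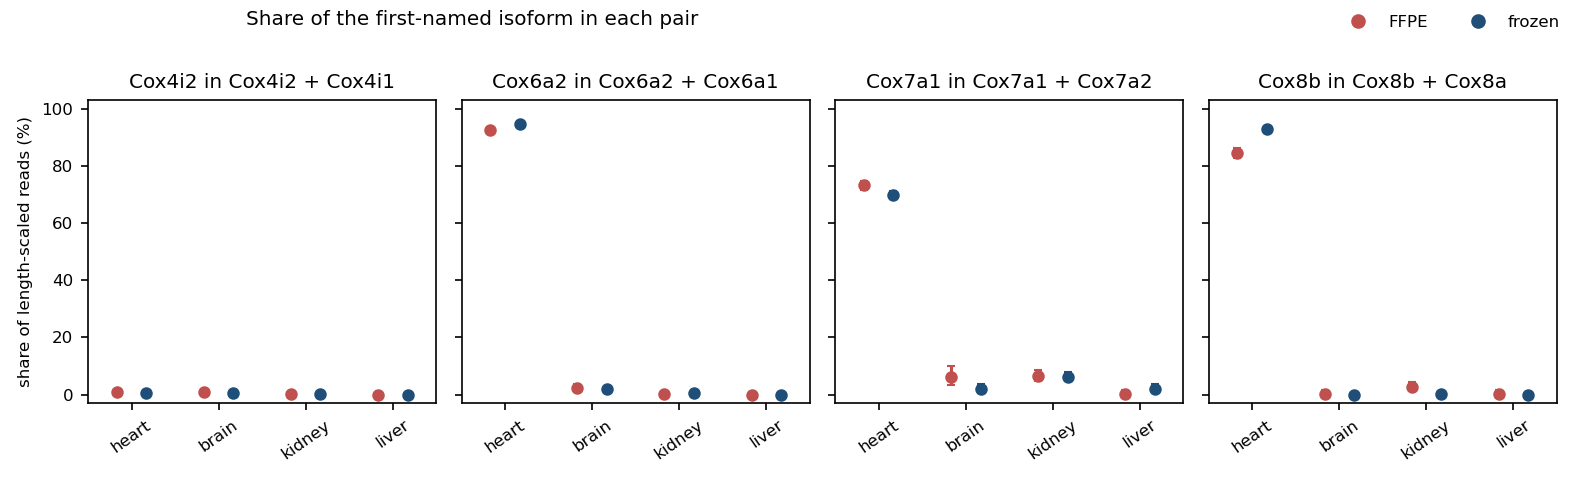
Share of Cox4i2, Cox6a2, Cox7a1 and Cox8b in its isoform pair, in percent of length-scaled reads, with exact 95% counting intervals. Red points are FFPE and blue points frozen libraries; in heart the shares of Cox6a2, Cox7a1 and Cox8b lie between 69.9% and 94.7%, and that of Cox4i2 stays under 1% in all 8 libraries.

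The summed level of each pair per kilobase was also higher in heart. Subunit 7A summed to 408 CPM per kb in FFPE heart and 768 CPM per kb in frozen heart, against 30.2 to 125 CPM per kb in the other 6 libraries, which is 8.28-fold from mean to mean. Subunit 6A summed to 354 and 616 CPM per kb in FFPE and frozen heart, against 42.8 to 165 CPM per kb elsewhere (4.94-fold). Subunits 8 and 4 were 4.00-fold and 3.56-fold higher, and Cox7c and Cox6b1, which have no partner here, 3.58-fold and 2.89-fold. For subunits 6A and 8 the widely expressed form was lower in heart, so the higher sum there lay in the muscle form, whereas for subunit 7A both forms were higher. Cox7c had the lowest level per kilobase of these 6 subunits in all 8 libraries. Subunit 4 had the highest in 7 of them, with FFPE heart as the exception, where subunit 7A at 408 CPM per kb stood beside subunit 4 at 406 CPM per kb.

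**Figure D4:**
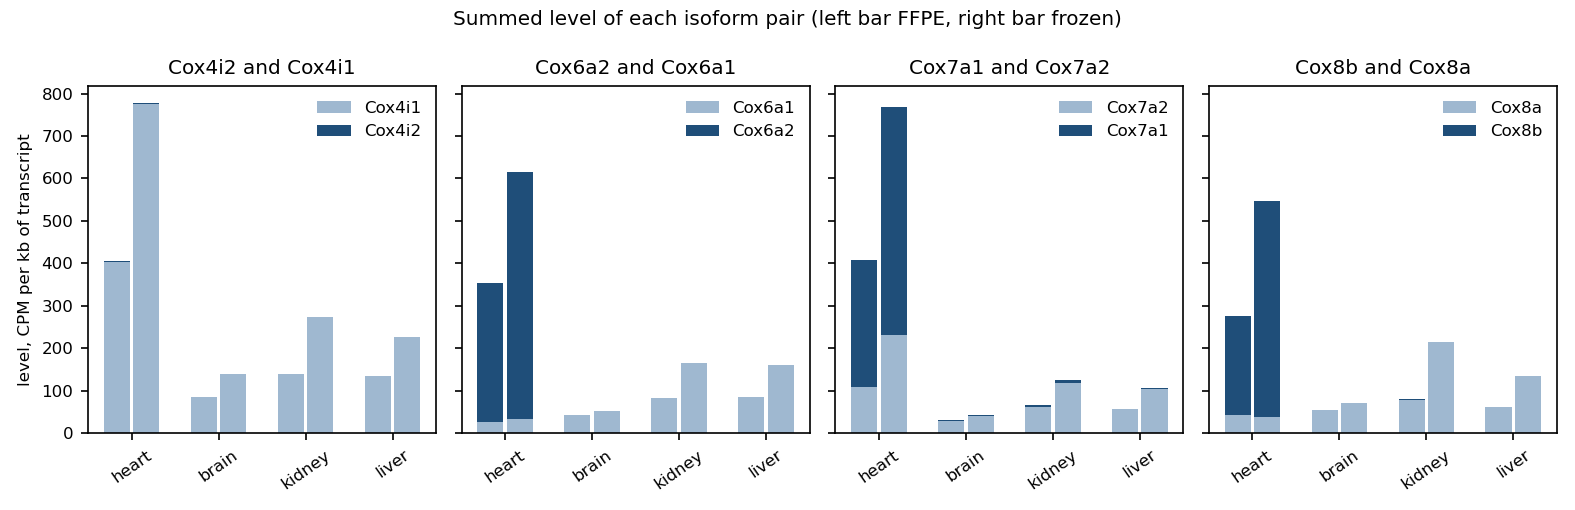
Summed level of each isoform pair in CPM per kb of transcript, with the FFPE library as the left and the frozen library as the right bar of each organ. Dark blue is Cox4i2, Cox6a2, Cox7a1 or Cox8b and light blue its partner; the heart bars reach 275 to 779 CPM per kb and the others 30.2 to 274 CPM per kb.

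Outside heart, brain was the low organ for most members on the scaled library sizes. In the order of mean CPM, Cox4i1, Cox6b1 and Cox7a2 ran heart, kidney, liver, brain, and Cox7c ran heart, liver, kidney, brain. Cox6a1 and Cox8a ran kidney, liver, brain, heart. Cox4i2 and Cox6a2 ran heart, brain, kidney, liver, without passing the test between brain and kidney. Cox7a1 ran heart, kidney, brain, liver and Cox8b heart, kidney, liver, brain, and neither passed the test between liver and brain. Kidney and liver were neighbours in the orders of Cox4i1, Cox6a1, Cox6b1, Cox7a2, Cox7c and Cox8a, and none of these 6 genes passed the test between kidney and liver, with log2 differences of -0.41 to 0.51. Against the mean of the other 3 organs, which includes heart, 0 members were higher and 8 lower in brain (34.7% and 31.6% of all genes tested), 2 were higher and 1 lower in kidney (20.3% and 19.9%), and 1 was higher and 5 lower in liver (27.3% and 35.2%). Cox4i2, Cox6a2 and Cox8b are low outside heart by the filter. Cox6a2 and Cox8b are among those lower in brain, Cox6a2 in kidney, and Cox4i2, Cox6a2 and Cox8b in liver, so these calls add nothing. The brain count was 5 without the scaling factors, where Cox6a1 turned to 0.28, and 5 without frozen brain, and the count lower in kidney ran from 0 to 4 over the alternatives. In pairwise contrasts of the same fit, chosen after the data had been seen, 8 members were higher in kidney than in brain and 0 lower, where 27.2% of all genes tested were higher and 29.4% lower. Cox6b1 (1.46 ± 0.24, SE, limma, adjusted p = 0.0008) and Cox7a2 (1.31 ± 0.17, limma, adjusted p = 0.000215) are examples. The Cox8b call (2.69 ± 0.97, limma, adjusted p = 0.0423) rests on 18 reads in kidney, 17 of them in the FFPE library, against 1 in brain. In liver against brain, 5 members were higher and 2 lower, where 30.8% of all genes were higher and 36.3% lower, and the 2 lower ones, Cox4i2 and Cox6a2, had 0 reads in liver. The scaling factors were largest in brain, and the pairwise contrasts were not run without them. As a share of all assigned reads, Cox4i1 was lower in liver than in brain. It had 1498 of 15619829 reads in FFPE liver against 1162 of 10180972 in FFPE brain. Frozen liver had 1809 of 13716870, against 2663 of 16807233 in frozen brain. Cox6a1, Cox6b1, Cox7a2 and Cox7c kept a higher share in liver in both preparations. In kidney against liver, 2 members were higher and 0 lower, Cox7a1 (2.96 ± 0.80, limma, adjusted p = 0.0175) and Cox6a2 (2.79 ± 0.56, limma, adjusted p = 0.00413), where 23.2% of all genes were higher and 18% lower. The Cox6a2 call rests on 11 reads in kidney against 0 in liver.

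The low Cox6a2 and Cox7a1 levels outside heart were set beside the cardiomyocyte markers, of which kidney had 15.0 CPM (FFPE) and 18.1 CPM (frozen) in sum, with reads on 8 of 8 genes. Cox7a1 had 4.34 reads per 1000 cardiomyocyte marker reads in FFPE heart and 6.72 in frozen heart, against 112 and 165 in FFPE and frozen kidney. For Cox6a2 these ratios were 8.22 and 12.6 in FFPE and frozen heart, against 9.09 and 25.8 in FFPE and frozen kidney, on 3 and 8 kidney reads. In FFPE and frozen brain, where the markers summed to 301 and 147 CPM, mostly Ryr2, the ratios were 2.41 and 2.16 for Cox7a1 and 2.04 and 4.31 for Cox6a2, below those of heart. In liver the Cox7a1 ratio rests on 1 and 8 reads over 89 and 16 marker reads (FFPE and frozen), and Cox6a2 had none. Relative to those markers Cox7a1 was thus far higher in kidney than in heart. In brain Ryr2 alone held 5290 of 5385 marker reads (FFPE) and 3636 of 3709 (frozen). The brain ratios therefore compare with Ryr2 and not with the list as a whole, and ratios without Ryr2 were not worked out.

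Cox8b differed between the kidney libraries. It had 17 reads (0.770 CPM) in FFPE kidney and 1 read (0.0585 CPM) in frozen kidney, which is the one place outside heart with more than 1 read. Markers of brown and white adipocytes differed in the same direction. The 7 markers summed to 16.95 CPM in FFPE kidney, with reads on 6 genes, and to 0.0585 CPM in frozen kidney, with reads on 1. Ucp1, the uncoupling protein of brown fat, had 144 reads in FFPE kidney and 0 in frozen kidney, and the lipid droplet gene Cidea had 77 and 0. In FFPE and frozen heart the list summed to 7.66 and 7.31 CPM, nearly all of it Cidea, with Ucp1 at 2 and 0 reads, and in FFPE and frozen brain to 1.12 and 0.952 CPM. In liver it summed to 205.5 CPM (FFPE) and 560.4 CPM (frozen), nearly all of it Elovl3, which liver also expresses, with Ucp1 at 0 reads in both. Skeletal muscle markers differed in that direction too. The 9 genes of that list summed to 3.85 CPM in FFPE kidney, with reads on 8 genes, and to 0.468 CPM in frozen kidney, with reads on 3, and Myh4 had 25 and 2 reads. In FFPE and frozen heart that list summed to 17.1 and 2.83 CPM, in brain to 6.25 and 1.55 CPM and in liver to 0.345 and 0.480 CPM. The part of adipose tissue or skeletal muscle in the Cox8b reads of FFPE kidney was not tested. In bulk tissue, fewer cells of a type and less RNA per cell cannot be told apart.

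The larger isoform of each pair was the same in FFPE and frozen tissue of each organ, and 3 widely expressed subunits were lower in FFPE. Cox7c fell by 1.33 ± 0.17 on the log2 scale (SE, limma, adjusted p = 0.0129), Cox7a2 by 0.85 ± 0.12 (adjusted p = 0.0151) and Cox4i1 by 0.84 ± 0.11 (adjusted p = 0.0129), each lower in 4 of 4 organs. Cox7c had 39.6 CPM in FFPE heart and 100.1 CPM in frozen heart, 6.87 and 11.7 CPM in FFPE and frozen brain, 9.88 and 33.8 CPM in FFPE and frozen kidney, and 14.7 and 40.0 CPM in FFPE and frozen liver. In each organ the counting interval of its FFPE to frozen ratio lay below no change, with differences from -1.77 in kidney to -0.76 in brain. Thus 3 members were called lower and 0 higher, where 2.18% of all genes tested were called lower and 1.2% higher.

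The other 7 members did not pass the test. Cox6a1 had -0.63 ± 0.15 (SE, limma, adjusted p = 0.0628) and Cox6b1 -0.57 ± 0.17 (adjusted p = 0.102), each with a lower value in FFPE in 4 of 4 organs, although Cox6b1 differed by only -0.01 in liver. Cox8a had -0.70 ± 0.24 (adjusted p = 0.141), with -1.47 in kidney and 0.16 in heart. Among the muscle isoforms, where heart holds nearly all reads, the FFPE minus frozen difference within heart was -0.83 for Cox6a2, -0.84 for Cox7a1 and -1.13 for Cox8b, each from 1 library of either kind. Cox4i2 had -0.43 (adjusted p = 0.641), on 33 reads in FFPE heart and 32 in frozen heart. Cox8b had 1.31 (adjusted p = 0.312) over all organs, which became -0.10 with libraries without reads at 3 reads, so no direction is given for it.

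The FFPE calls depended on the processing. The member transcripts are short beside a median of 3029 nucleotides over the genes tested, and after a trend with transcript length and GC content was removed from each library, Cox7c at -0.83 (limma, adjusted p = 0.0426) was the 1 member still called. Without the authors' scaling factors, which moves the median of all genes to 0.54, Cox7c at -0.85 (limma, adjusted p = 0.0111) was again the 1 member called, and Cox4i1 was at -0.37. Leaving out any 1 library of brain, kidney or liver left 0 members called, and leaving out either heart library left 3. In those fits without a brain, kidney or liver library the differences stayed about as large. They were -1.52 to -1.18 for Cox7c, -0.95 to -0.83 for Cox7a2 and -0.89 to -0.80 for Cox4i1. The other 2 settings made them smaller. Cox7a2 and Cox4i1 were at -0.39 and -0.42 with the length and GC trend removed. Without the scaling factors they were at -0.38 and -0.37.

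**Figure D5:**
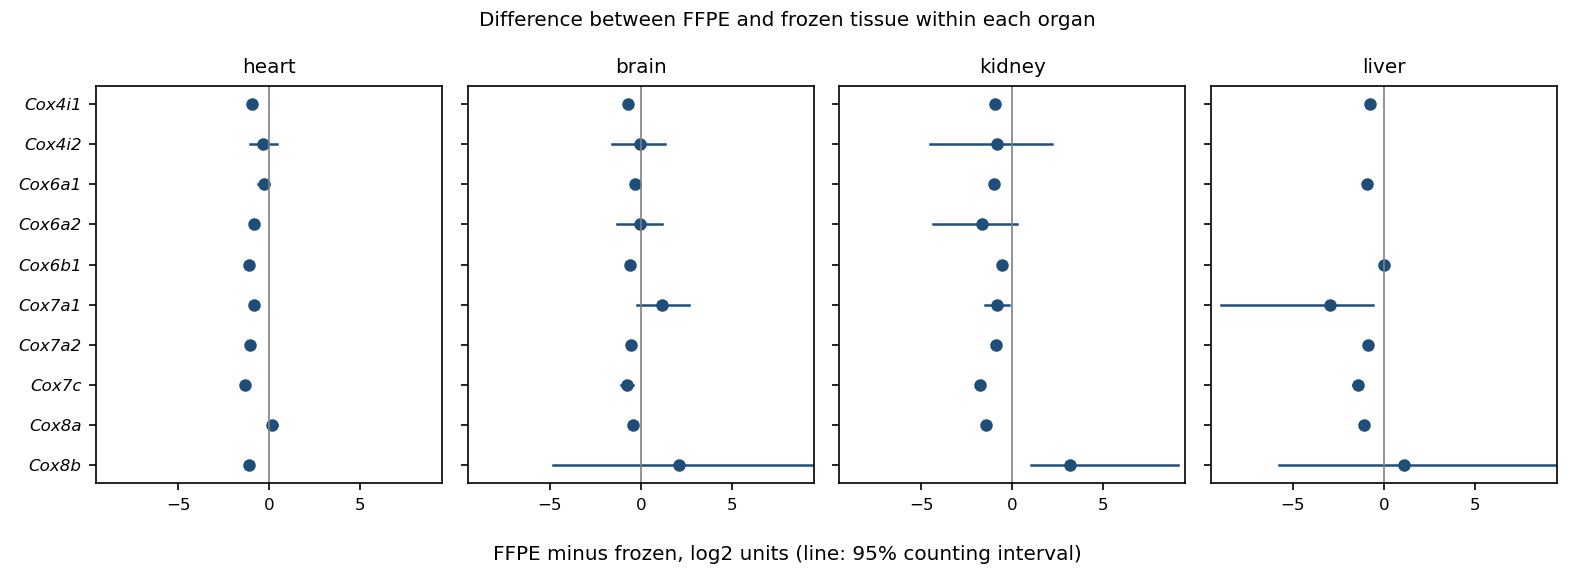
FFPE minus frozen difference of each gene within each organ, in log2 units on the x axis. Points are the difference of 1 FFPE and 1 frozen library, lines are exact 95% counting intervals and end at the edge of the plot where they run past it, and genes with 0 reads in both libraries have no point; Cox7c lies between -1.77 and -0.76 in the 4 organs, and Cox8b in kidney at 3.18.

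The other oxidase genes, from lists drawn up with earlier results of these data known, gave the setting for the members. Of 10 other nuclear subunits 7 were tested, and all 7 were called higher in heart, where 21.5% of all genes tested were, with a median log2 fold change of 1.82. Ndufa4l2 (2.86 ± 0.50) was above 1 CPM in the 2 heart libraries alone, so it entered the test only through heart and had to differ. The others were Cox5a (2.23 ± 0.11), Cox7b (2.23 ± 0.18), Cox6c (1.82 ± 0.16), Cox5b (1.77 ± 0.13), Ndufa4 (1.74 ± 0.15) and Cox7a2l (0.93 ± 0.13; SE, limma, adjusted p from 2.19e-06 to 0.000603). Cox5a and Cox5b encode subunits on the matrix side, and Cox7a2l encodes a factor that joins the oxidase to complex III. Cox4i1, Cox6b1, Cox7a2 and Cox7c, at 1.39 to 1.99, lay within the range from Cox7a2l to Cox5a. The other 3, Cox6b2, Cox7b2 and Cox8c, known from testis, had at most 20 reads in any library.

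The mitochondrially encoded core was higher in heart as well, against the mean of the other 3 organs. COX1, the subunit with the oxygen-binding site, had 25250 CPM in FFPE heart and 26990 CPM in frozen heart, against 3315 to 15960 CPM in the other 6 libraries, and a log2 fold change of 1.85 ± 0.48 (SE, limma, adjusted p = 0.0121). COX2, which takes electrons from cytochrome c, and COX3 had 2.73 ± 0.22 (adjusted p = 2.13e-05) and 2.06 ± 0.39 (adjusted p = 0.0025). Heart was not the highest organ for COX3 among FFPE libraries. COX3 had 92.3 CPM in FFPE liver, above 63.2 and 64.6 CPM in FFPE and frozen heart, while frozen liver had 16.2 CPM. The FFPE minus frozen differences of the 3 mitochondrially encoded subunits were 0.33 to 1.09 and none passed the test. Of the 7 other nuclear subunits, 5 were called lower in FFPE, by 0.76 (Cox5a) to 1.00 (Ndufa4), where 2.18% of all genes tested were. Without a mean-variance trend 0 genes in all were called in that comparison.

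Among 27 tested assembly factors, of 28 listed, 11 were called higher in heart and 1, Surf1 at -0.49 (limma, adjusted p = 0.0466), lower, where 21.5% of all genes tested were higher and 28.7% lower. The largest differences were those of the copper chaperone Cox17 (1.82 ± 0.18), the haem O synthase Cox10 (1.74 ± 0.21), Cox14 (1.55 ± 0.16) and Cmc2 (1.54 ± 0.28). Cytochrome c (Cycs, 2.14 ± 0.18) and its haem lyase (Hccs, 1.41 ± 0.20) were higher in heart, the 2 tested of 3 listed. Of 15 regulators of mitochondrial genes, 8 were called higher and 0 lower, with Esrrb (2.82 ± 0.34), Ppargc1b (1.56 ± 0.16), Ppargc1a (1.46 ± 0.21) and Esrra (1.37 ± 0.26) at the top. Heart was not the highest organ for all of them: Esrrb had 13.2 and 12.1 CPM in FFPE and frozen heart, against 14.2 and 14.3 CPM in FFPE and frozen kidney and 1.40 CPM or less in brain and liver. Esrra had 40.6 CPM in frozen heart and 42.0 CPM in frozen kidney. The list medians were 0.31 for assembly factors and 0.56 for regulators, beside -0.19 over all genes tested.

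Genes whose pattern was most like a member were sought by Pearson's r of log2 levels over the 8 libraries. These values describe 8 points in which the 2 heart libraries stand apart, and they carry no test. Where a gene had 0 reads, its value is set by the added 0.5 reads and the library size. In both liver libraries this was so for Cox6a2 and Cox4i2, and for Srpk3 and Ppp1r14c, named below for Cox4i2. For Cox6a2 the closest were Mpi (r = 0.995), Pkig, Bzw2, Mrpl3 and Rit1 (0.990). For Cox7a1 they were Ets2 (r = 0.988), Hspb7, Rpl3l, Ptges3l and Tmem182 (0.980), and for Cox8b C1qtnf9 (r = 0.995), Vim, Slk, Trim55 and Fkbp7 (0.985). For Cox4i2 they were Plaat3 (r = 0.997), Srpk3, Camk1, Pygb and Ppp1r14c (0.984). A like pattern did not mean a like range. Mpi spanned log2 CPM of 2.92 to 5.13, while Hspb7, a small heat shock protein of heart, spanned -4.86 (0 reads) to 8.69.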

How the data were processed

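Total RNA was sequenced from 1 FFPE and 1 frozen sample of each of 4 mouse organs; the labels' protocols give Trizol extraction and PIXUL shearing. Per the submitters' processing notes, HISAT2, featureCounts, limma and genome mm10 are named, with no versions given. The authors deposited log2 values for 27179 genes. From the deposited values these were worked out to be log2 CPM with 0.5 added to each count on scaled library sizes, and whole reads were recovered for 100% of values, within 1e-06 of a whole number. A CPM value here is recovered reads over the scaled library size.

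The model was fitted with limma 3.58.1 in R 4.3.3 (lmFit, eBayes with a mean-variance trend) on the deposited log2 values, with terms for organ and preservation, over 15819 genes with log2 CPM above 0 in at least 2 libraries. A gene was called where p, adjusted by Benjamini-Hochberg over all genes tested, was under 0.05. An organ's p compares its 2 libraries with the rest, against 1 estimate of spread per gene that all groups share. That spread has 3 residual degrees of freedom and includes how organs differ in their response to FFPE processing. The eBayes step moderates it across genes. The p of FFPE rests on 4 organ differences that may share animals. The added 0.5 reads understate changes of genes with few reads. The fit was tested on simulated data, with 100 genes changed at each size. For heart it called 14% of log2 changes of 1 and 62% of those of 2, with 2 false calls. For FFPE it called 27% and 55%, with 2 false calls. Few genes changed in the simulation, whereas 21.5% of all genes tested were called higher and 28.7% lower in heart. The adjustment of p depends on that number, so the simulated heart figures do not give the power of the heart test. A gene that did not pass may still differ. Transcript lengths, exons and coordinates came from GENCODE M21 (GRCm38) and promoters from RefSeq. Shares carry exact Clopper-Pearson intervals, and differences within an organ exact conditional intervals of the read ratio.

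The members and the gene lists were chosen with earlier results of these data known. Named were all members, the called other nuclear subunits, the mitochondrial subunits, up to 4 genes per further list with the largest heart contrast and the 5 genes most like each of 4 members; Surf1 and single marker genes were named after their values were seen. Alternatives were other filters, scalings, pseudocounts and variance models, leaving out each library, a length and GC correction and shares without length. Pairwise organ contrasts were added after the data had been seen.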

Additional observations from a re-analysis of the deposited data

Results flagged for a closer look

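The FFPE minus frozen difference of Cox8b had opposite signs in 2 organs: 3.18 log2 units in kidney and -1.13 in heart, 4.30 apart. The kidney value compares 17 reads in FFPE kidney with 1 read in frozen kidney (exact 95% counting interval 1.05 to 9.10), and the heart value 1105 reads in FFPE heart with 1877 in frozen heart (-1.24 to -1.02). There is 1 library of each kind per organ, so the difference between the organs was not tested. Adipocyte markers differed in the same direction in kidney, with 16.95 CPM in FFPE kidney and 0.0585 CPM in frozen kidney in sum, as did skeletal muscle markers with 3.85 CPM and 0.468 CPM, and their part in the result was not tested.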

How the results depend on the processing

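The comparison of FFPE with frozen tissue is made within organs, since organ is a term of the model. No further paired analysis was possible because each group holds 1 library and the labels give no replicate numbers. For heart against the other organs no member changed sign under any setting run. The count of members higher in heart was 4 under a filter of log2 above 1 in at least 4 libraries, which leaves fewer members tested, and the count lower was 1 against brain alone and 1 to 2 with single libraries left out. For brain, 1 member was higher without the scaling factors and without a mean-variance trend, and the lower count was 5 under the strict filter and without scaling factors, and 5 to 8 with single libraries left out. For kidney, 1 was higher without a trend, 1 to 2 with libraries left out and 8 against brain alone; the lower count was 0 under the strict filter, 3 with quantile normalization, 4 with log2(CPM + 5), 2 without a trend, 1 to 2 with libraries left out, and 0 against brain or liver alone. For liver, the higher count was 1 to 2 with libraries left out and 5 against brain alone, and the lower count 1 under the strict filter and 2 against brain alone. For FFPE, the lower count was 1 without scaling factors, 0 without a trend, 7 with voom on recovered reads, 1 with the length and GC trend removed and 0 to 3 with libraries left out. Without a trend the same fit called 0 of all genes in either direction, and voom 572 higher and 835 lower, against 190 higher and 345 lower as reported.

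Reversed signs were limited to values that were not called, except Cox6a1 in brain, Cox6a2 in kidney, Cox6a1 in kidney, and Cox4i1 and Cox8b in liver. In brain these were Cox4i2 (-0.48 quantile, -0.10 with log2(CPM + 5)) and, without scaling factors, Cox6a1 (0.28) and Cox8a (0.60). In kidney they were Cox4i1 (0.17 quantile, 0.081 without scaling factors, 0.86 against brain, 0.16 against liver), Cox7a1 (-0.80 to 0.14 with libraries left out, 0.12 without FFPE brain, 2.17 against brain, 2.96 against liver), Cox7c (1.03 against brain), Cox8b (2.69 against brain, 1.91 against liver) and, against liver, Cox4i2 (1.91), Cox6a1 (-0.0055) and Cox6a2 (2.79). In liver they were Cox6b1 (-0.22 quantile, -0.23 without scaling factors, -0.27 to 0.48 with libraries left out), Cox7a2 (0.10 median centring, 0.0012 voom, -0.074 to 0.064 with libraries left out, 1.17 against brain), Cox7c (-0.18 without scaling factors) and, against brain, Cox4i1 (0.69) and Cox8b (0.79). For FFPE they were Cox4i2 (0.044 without scaling factors, 0.0056 with the length and GC trend removed) and Cox8b (-0.21 with log2(CPM + 5), -0.86 with voom). The cause was not tested; contrasts against 1 organ differ by construction, since heart sits in the mean of the others. Shares without division by length kept the same order, with Cox7a1 at 62.0% in FFPE heart and 58.1% in frozen heart and Cox8b at 78.4% and 89.9%.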
